A study of Mus musculus with 29 samples.

Results

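The 10 genes described here are the Hoxa and Hoxb genes Hoxa5, Hoxa7, Hoxa9 and Hoxa10 and Hoxb2, Hoxb3, Hoxb4, Hoxb5, Hoxb6 and Hoxb8, measured by RNA sequencing in hematopoietic stem cells (HSCs) of the mouse. They were chosen by symbol as Hoxa and Hoxb genes in use in HSCs, 10 of the 21 protein-coding genes of the Hoxa and Hoxb clusters and of 55376 rows in the count table. HSCs were sorted from bone marrow as Lin-Sca1+cKit+CD34-Flk2-CD150+ cells from young and old mice, either wild type (WT) or carrying a GADD45B knockout (KO). GADD45B is a stress-inducible protein linked to DNA demethylation. The 19 libraries fell into young WT (YWT, 4 libraries), old WT (OWT, 4), young KO (YKO, 4) and old KO (OKO, 7). The labels give no age in months and no treatment, and the knockout was a commercial line bred further for the study, so every KO library shares that line. The labels do not say whether each library came from a separate mouse, so the tests measure the spread between these libraries, which may be in part technical.

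Hox genes encode homeodomain transcription factors that lie in clusters of the mouse genome and give embryonic tissues their position along the body axis. In blood, members of the Hoxa and Hoxb clusters are read in stem and early progenitor cells and are shut off as cells mature. HOX proteins bind DNA together with the TALE homeodomain proteins of the MEIS and PBX families, and the clusters are kept open by the MLL (Kmt2a) and DOT1L methyltransferase complexes, which is why fusions of MLL raise HOXA9 in leukemia. Overexpressed HOXB4 is known to expand HSCs, and a Hoxb5 reporter marks long-term HSCs.

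The libraries held 22197555 to 77970627 gene counts, of which the 10 genes took 0.00898 to 0.0292%, or 1994 to 19099 counts a library. Levels are given as CPM, the counts scaled to a common library size with factors from trimmed means (TMM). All 10 genes passed the filter on low counts. Of these, 9 exceeded its limit of 0.174 CPM in all 19 libraries, whereas Hoxb8 exceeded it in 12 libraries, 4 of OWT, 7 of OKO, 1 of YWT and 0 of YKO. Hoxb8 thus passed only through the old groups, and the counts of the 4 comparisons are also given without it. The row of the targeted gene Gadd45b lay at 2.84 to 6.94 CPM in OKO, below all 4 OWT libraries (10.1 to 15.5). In YKO it lay at 5.14 to 14.3 CPM, with 2 libraries inside the YWT range of 7.34 to 17.5 and 2 below it, so the label of YKO was not borne out by this gene and its samples are called the libraries labelled YKO here. Titles mark OWT1 to OWT4 and OKO4 to OKO7 with a shared prefix that the other libraries lack. Age and this prefix therefore cannot be told apart in WT, and values within libraries of the same prefix are given beside the pooled ones for KO.

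All 10 markers of HSCs (Procr, Slamf1, Mecom, Hlf and others) were detected in every library, and their summed level was 2836 to 3624 CPM in YWT, 3310 to 5197 in OWT, 2531 to 3282 in YKO and 2489 to 4440 in OKO. Markers of mature cells were also present. The summed B cell markers lay at 884.5 to 4252 CPM in YWT, 614.3 to 1302 in OWT, 918.7 to 5299 in YKO and 142 to 1514 in OKO, with all 10 detected throughout. Erythroid markers summed to 686.6 to 2102 CPM in YWT, 184.6 to 955.4 in OWT, 1659 to 4778 in YKO and 42.01 to 2577 in OKO. Granulocyte markers lay at 210.9 to 404.2, 609.1 to 896.9, 50.58 to 290.8 and 203.1 to 607 CPM in the same order, T cell markers at 14.02 to 146 and megakaryocyte markers at 450.5 to 2020 over all libraries. In sorted bulk samples such as these, fewer HSCs and less RNA of a gene per HSC cannot be told apart.

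The Hoxa genes lie within chr6:52155590-52260880 and the Hoxb genes within chr11:96194316-96368256 (mm10), spans of 105.3 and 173.9 kb with 31 and 19 annotated genes. Hoxa5 (chr6:52201754-52204587), Hoxa7 (chr6:52214491-52221854), Hoxa9 (chr6:52223100-52231089) and Hoxa10 (chr6:52231197-52240854) lie in this order on the minus strand, with Hoxa6 between Hoxa5 and Hoxa7. Hoxb8 (chr11:96281905-96285315), Hoxb6 (chr11:96292476-96301569), Hoxb5 (chr11:96303336-96306121), Hoxb4 (chr11:96318267-96321638), Hoxb3 (chr11:96323326-96347930) and Hoxb2 (chr11:96350525-96354012) lie in this order on the plus strand, with Hoxb7 between Hoxb8 and Hoxb6. Long noncoding RNAs run antisense through both clusters. Of the exon length, 52.9% of Hoxb3 and 27.3% of Hoxb2 overlap Hoxb3os, 20.4% of Hoxa7 overlaps Hoxaas3 and 3.59% of Hoxb5 overlaps Hoxb5os. The library kit does not keep strand, so reads of these 4 genes and of their antisense partners cannot be told apart where exons overlap. A strand setting of the counting is not given in the sources used here.

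Both clusters also carry a microRNA gene of the miR-196 family, and the Hoxb cluster carries one of the miR-10 family. These families are known to target Hox transcripts. They are shown because they lie within the clusters and because the site with the most paired bases lies in Hoxb8, the gene with the lowest level. Whether such sites bear on the levels was not tested. In the mature sequences from RefSeq (GRCm38.p6), capitals mark the seed, bases 2 to 8.
miR-196b-5p: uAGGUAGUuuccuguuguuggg
miR-196a-5p: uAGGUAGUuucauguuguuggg
miR-10a-5p: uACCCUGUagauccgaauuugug
miR-196b-5p is encoded at chr6:52230129-52230150 on the minus strand, inside an exon of Hoxa9. miR-196a-5p comes from Mir196a-1 at chr11:96265187-96265208 on the plus strand, upstream of Hoxb8. miR-10a-5p is encoded at chr11:96317186-96317208 on the plus strand, next to Hoxb4. Both miR-196 sequences share their seed and 21 of 22 bases, the difference being C12A counted from the 5′ end. Mir10a, Mir196a-1 and Mir196b held at most 4, 3 and 0 counts in any library, and a library of long RNA does not measure mature microRNAs, so their levels were not assessed.

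Among the longest coding transcripts of 21877 genes, 2 held a window in which all 22 bases could pair with miR-196a-5p when G:U pairs are allowed (0.00914%). These were Hoxb8, with 21 Watson-Crick pairs and 1 G:U pair, and Rps6ka2, with 12 and 10. The Hoxb8 window lies after the coding part at chr11:96284888-96284909 on the plus strand (mm10), and capitals mark the Watson-Crick pairs.
Hoxb8 site: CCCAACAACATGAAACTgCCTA
The best windows of the other 9 genes reached 17 to 19 pairs, where the median transcript reached 18. The exact seed match ACTACCT of miR-196, searched on the sense strand of the transcript, occurred in 16.0% of transcripts. It was found 4 times in Hoxa7 and 1 time each in Hoxa5, Hoxa9, Hoxb6 and Hoxb8. In Hoxb8 the match does not lie after the coding part, so it is not part of the site shown. In the other genes it lies after the coding part. The match ACAGGGT of miR-10, present in 18.9% of transcripts, occurred in Hoxa9, Hoxb3 and Hoxb5. These matches describe letters only.

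RefSeq promoter windows, the 250 bases before an annotated start, were at hand for 6 of the 10 genes, with 2 starts for Hoxa10, and none were given for Hoxb2, Hoxb3, Hoxb5 and Hoxb6. The windows of Hoxa9, Hoxb4 and Hoxb8 are shown because these genes span the range from the highest to the lowest level. Capitals mark matches, read on either strand, to 3 promoter motifs, the CCAAT box, the TATA box core TATAAA and the GC box core GGCGGG (GRCm38.p6).
Hoxa9, chr6:52227371-52227620, minus strand: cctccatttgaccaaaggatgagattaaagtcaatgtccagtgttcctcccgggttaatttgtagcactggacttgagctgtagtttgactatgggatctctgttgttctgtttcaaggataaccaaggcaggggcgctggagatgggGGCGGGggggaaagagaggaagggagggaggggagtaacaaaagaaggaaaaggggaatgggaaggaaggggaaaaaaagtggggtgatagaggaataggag
Hoxb4, chr11:96318017-96318266, plus strand: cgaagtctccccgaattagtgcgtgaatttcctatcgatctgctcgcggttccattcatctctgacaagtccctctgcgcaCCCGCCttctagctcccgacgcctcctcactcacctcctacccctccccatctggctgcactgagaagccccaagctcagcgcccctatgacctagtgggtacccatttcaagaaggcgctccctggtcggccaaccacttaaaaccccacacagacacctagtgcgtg
Hoxb8, chr11:96281655-96281904, plus strand: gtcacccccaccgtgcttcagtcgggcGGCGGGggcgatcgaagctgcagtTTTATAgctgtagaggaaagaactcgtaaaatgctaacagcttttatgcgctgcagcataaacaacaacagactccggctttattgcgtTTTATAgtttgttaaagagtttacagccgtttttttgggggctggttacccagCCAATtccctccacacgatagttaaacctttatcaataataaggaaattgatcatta
The Hoxa9 window held 3 CpG sites, that of Hoxb4 14 and that of Hoxb8 12, against a median of 6 over 32851 windows. Hoxa5 had 28, Hoxa7 7 and the starts of Hoxa10 7 and 20. GGCGGG was found in 6 of the 7 windows (all but Hoxa7) and in 32.5% of all windows. Hoxb8 held TATAAA 2 times and the second start of Hoxa10 held it 1 time, where 12.4% of all windows hold it. CCAAT was present in Hoxa5, the second start of Hoxa10 and Hoxb8 and in 33.8% of all windows. TGACAG, a MEIS core, and TGATTNAT, a joint HOX and PBX core, were found in 0 of the 7 windows and in 15.9% and 2.82% of all windows.

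Per kilobase of annotated exon, the 10 genes covered a wide range of levels, with 3 of the 4 Hoxa genes on top. The median over the 19 libraries was 11.1 CPM per kb for Hoxa10, 10.2 for Hoxa9 and 8.87 for Hoxa7. Hoxb2 followed at 5.21, Hoxa5 at 5.14 and Hoxb5 at 4.12 CPM per kb. Hoxb6 lay at 2.16, Hoxb4 at 1.35, Hoxb3 at 1.17 and Hoxb8 at 0.137 CPM per kb.

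Neighbours in this order did not all differ beyond their spread. Hoxa10 exceeded Hoxa9 in 13 of 19 libraries, Hoxa9 exceeded Hoxa7 in 13 and Hoxb2 exceeded Hoxa5 in 13. Hoxb6 exceeded Hoxb4 in 15 libraries and Hoxb4 exceeded Hoxb3 in 15. Clear steps stood below Hoxa7, which exceeded Hoxb2 in 19 of 19 libraries, below Hoxa5 and below Hoxb5, each above the next gene in 18, and below Hoxb3, above Hoxb8 in 19. The levels of Hoxb3, Hoxb2 and Hoxa7 carry the antisense overlap given above, and its part in the order was not tested. Exon lengths decided part of the order. With the length of the longest transcript, Hoxa9 stood above Hoxa10, at a median of 17.6 against 14.1 CPM per kb, and Hoxb3 above Hoxb4, at 1.56 against 1.35.

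**Figure D1:**
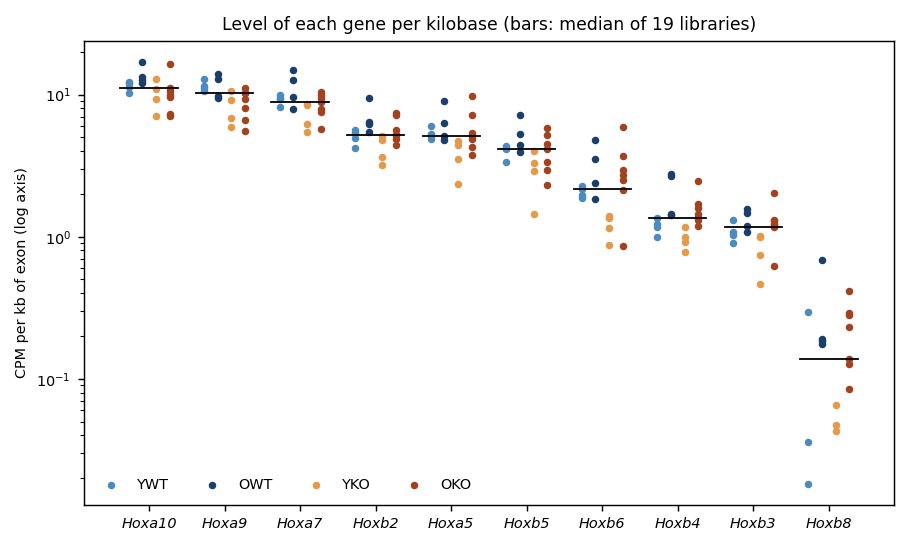
Level of each of the 10 genes in CPM per kb of annotated exon (log axis), 1 point per library coloured by group, with the median over 19 libraries marked; the 2 libraries with 0 counts of Hoxb8 are not drawn. Hoxa10, Hoxa9 and Hoxa7 overlap at the top, and Hoxb8 stands apart at the bottom.

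Hoxa9, the Hox gene most tied to stem cell repopulation and to leukemia, took the most counts of the 10. It lay at 59.2, 64.2, 72.2 and 61.9 CPM in the 4 YWT libraries and at 77.3, 72.0, 54.1 and 53.1 CPM in OWT. The libraries labelled YKO held 32.8, 38.3, 51.1 and 58.6 CPM. OKO ranged from 31.0 to 62.5 CPM with a median of 52.2. All 4 YKO libraries lay below the lowest of YWT, whereas OWT spread around YWT on both sides and OKO overlapped every other group.

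Hoxa10, a dose-dependent regulator of HSC and progenitor growth, lay at 37.6 ± 3.17 CPM in YWT and 44.95 ± 7.24 in OWT (mean ± SD, n = 4 each). It lay at 32.8 ± 7.85 CPM in YKO (n = 4) and 33.6 ± 10.03 in OKO (n = 7). These 4 ranges overlapped, and the lowest library held 23.18 CPM in both YKO and OKO. Hoxa7 is another gene of the cluster and also a target of MLL. It lay at 26.4 ± 2.23 CPM in YWT, 32.5 ± 8.98 in OWT, 20.55 ± 4.47 in YKO and 24.6 ± 4.64 in OKO, again with overlap throughout.

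Hoxa5, which takes part in fate choice of myeloid and erythroid progenitors, held 9.83, 9.19, 11.3 and 9.66 CPM in YWT. The OWT libraries held 16.9, 9.64, 9.06 and 11.85 CPM. YKO held 4.42, 6.57, 8.30 and 8.77 CPM, all below the lowest YWT library. OKO ran from 7.08 to 18.2 CPM with a median of 9.65, overlapping all other groups.

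Hoxb4, known for expanding HSCs when overexpressed, held 3.455, 2.56, 2.995 and 3.15 CPM in YWT and 6.88, 3.71, 7.03 and 3.65 CPM in OWT. YKO held 2.34, 1.99, 3.02 and 2.55 CPM. OKO ran from 3.03 to 6.32 CPM with a median of 3.68. Every OWT library lay above every YWT library and every OKO library above every YKO library, in KO with the nearest libraries at 3.031 and 3.023 CPM. The 2 high OWT libraries, replicates 1 and 3, held nearly the same level and stood apart from the other 2.

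Hoxb6, which expands myeloid progenitors when overexpressed, held 4.24, 3.67, 3.88 and 4.50 CPM in YWT. OWT held 9.42, 6.92, 3.60 and 4.66 CPM. YKO held 1.70, 2.67, 2.27 and 2.76 CPM, all below YWT. In OKO it ran from 1.69 to 11.5 CPM with a median of 5.34, so OKO overlapped both YKO and OWT.

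Hoxb5, the reporter gene of long-term HSCs, lay at 11.15 ± 1.24 CPM in YWT, 14.5 ± 3.965 in OWT, 8.12 ± 3.03 in YKO and 11.3 ± 3.51 in OKO. The library YKO1 held 3.99 CPM and the other YKO libraries 8.13 to 11.2, so YKO reached into the YWT range. Hoxb2, a hindbrain patterning gene that is also read in HSCs, lay at 17.6 ± 2.19, 23.99 ± 6.16, 14.6 ± 3.18 and 19.9 ± 4.04 CPM in the same order of groups. Hoxb3, which impairs lymphoid development when overexpressed, lay at 4.58 ± 0.703, 5.63 ± 0.9485, 3.405 ± 1.09 and 5.385 ± 1.765 CPM. The groups of these 3 genes overlapped in all comparisons.

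Hoxb8, used as a conditional factor to hold progenitors in culture, was close to the detection limit. YWT held 44, 2, 6 and 0 counts, or 0.784, 0.0482, 0.0946 and 0 CPM, where a count of 0 allows up to 0.0579 CPM in YWT4. OWT held 128, 32, 22 and 30 counts, or 1.81, 0.487, 0.4605 and 0.503 CPM. YKO held 0, 6, 6 and 10 counts, or 0, 0.113, 0.125 and 0.171 CPM, with a limit of 0.1597 CPM in YKO1. These limits take 3 counts and cover counting error only. OKO held 12 to 54 counts, from 0.224 to 1.09 CPM with a median of 0.613. Every OKO library lay above every YKO library, while YWT1 lay above 3 of the 4 OWT libraries.

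**Figure D2:**
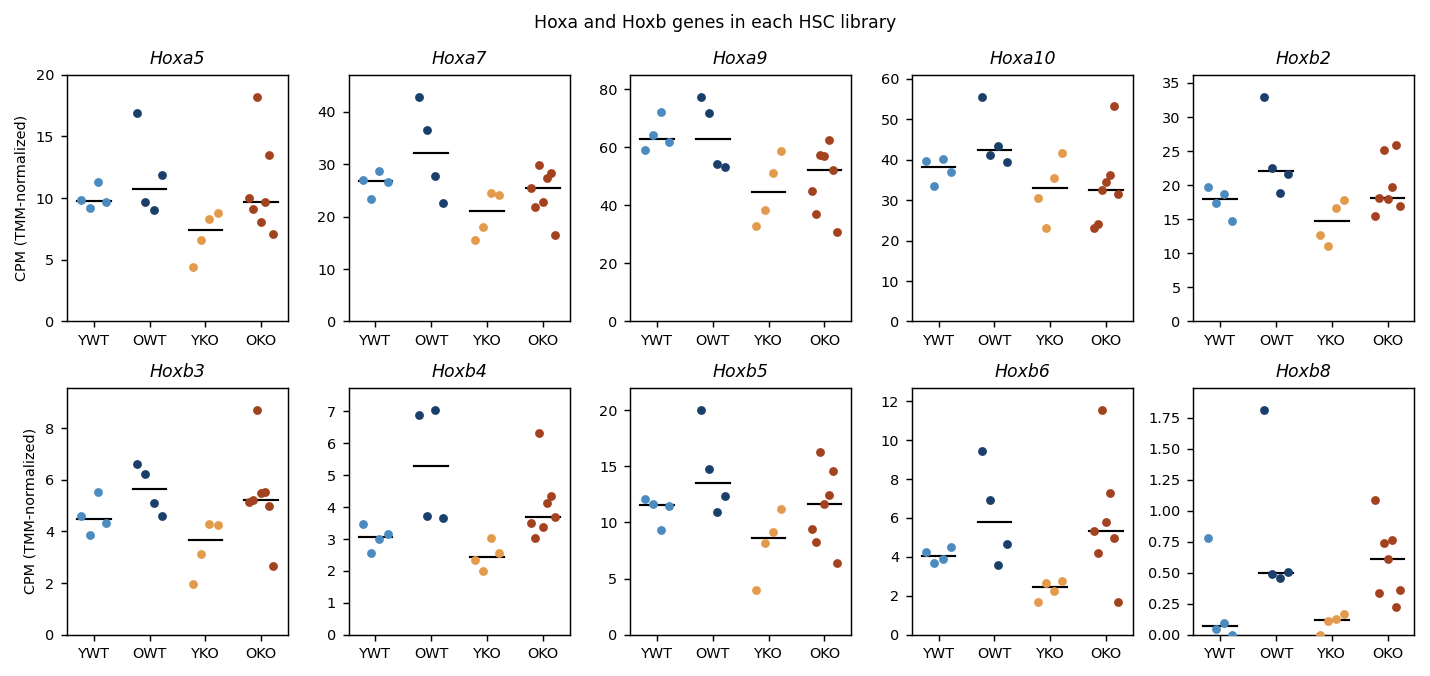
CPM of each of the 10 genes (linear axis from 0) in every library, 1 point per library by group, with a black line at the group median. YKO lies below YWT for Hoxa5, Hoxa9 and Hoxb6, and OWT above YWT for Hoxb4.

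Aging of WT HSCs was read from OWT against YWT. Of the 10 genes, 9 had a log2 fold change above 0, where 45.7% of all 33690 tested genes did, and 10 lay above the median of all genes (−0.05). The median over the 10 genes was 0.34. The 6 Hoxb genes had a median of 0.52 and the 4 Hoxa genes 0.25. None of the 10 passed the test (edgeR quasi-likelihood, Benjamini-Hochberg adjusted p below 0.05 and a change of over 1.5-fold), which 0.00297% of all genes passed. Hoxb4 had the smallest p, with a log2 fold change of 0.81 (SE 0.30, edgeR unadjusted p = 0.0144, adjusted p = 0.937), and was the 1 gene of the 10 with p below 0.05, a limit that 2.64% of all genes passed in that direction. It was also the 1 gene without overlap between the groups, which held for 2.24% of all genes in that direction. Hoxb8 had 1.80 (SE 0.95), Hoxb6 0.60 (SE 0.40) and Hoxb2 0.44 (SE 0.23), and Hoxa9 had −0.01 (SE 0.23). With the title prefix as a covariate, 8 of the 10 genes lay above 0, their median was 0.52 and none was called. The median of all genes was then 0.19, and 8 of the 10 lay above it. That fit takes the prefix difference from OKO, the only group with libraries of both states. No library of OWT shares the prefix state of YWT, so no comparison within a prefix could be made. Without Hoxb8, 8 of 9 genes lay above 0, all 9 above the median of all genes, and their median was 0.30. Without OWT1 the median of the 10 genes was 0.21. The granulocyte marker sum was 609.1 to 896.9 CPM in OWT and 210.9 to 404.2 in YWT, and all 9 of these markers had a log2 fold change above 0 (median 1.74), 7 of them at an unadjusted p below 0.05 and none called. The 10 HSC markers also all lay above 0 (median 0.48). The part of these markers in the Hox values was not tested.

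The libraries labelled YKO were compared with YWT. All 10 genes had a log2 fold change below 0, from −0.20 (Hoxa10) to −1.07 (Hoxb8), with a median of −0.44, and all 10 lay below the median of all genes (−0.02). The share of genes above 0 was 48.1% of all genes. None of the 10 was called, where 0.0267% of all genes were. Hoxa9 had a log2 fold change of −0.51 (SE 0.23, edgeR unadjusted p = 0.0395, adjusted p = 1.0) and was the 1 gene of the 10 with p below 0.05, against 2.68% of all genes in that direction. Hoxa5 (−0.51, SE 0.29), Hoxa9 and Hoxb6 (−0.79, SE 0.41) did not overlap between the groups, 3 of 10 genes, where YKO lay below YWT without overlap in 3.01% of all genes. Without Hoxb8, the median of the other 9 was −0.42 with all 9 below 0.

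The difference rested much on 2 libraries. YKO1 and YKO2 held the lowest summed levels of the 10 genes of all 19 libraries, and they also held the highest B cell marker sums of YKO (3101 and 5299 CPM) and the highest T cell marker sums (146 and 100.7 CPM). They are also the 2 libraries labelled YKO whose Gadd45b level (12.7 and 14.3 CPM) lay inside the YWT range. Without YKO1 alone the median of the 10 genes was −0.285. Without both, 9 of the 10 genes stayed below 0, but their median was −0.15 and the median of all genes −0.23, so that 6 of the 10 lay above it. This alternative was chosen after the data were seen. The T cell marker sum was 36.3 to 146 CPM in YKO and 22.6 to 35.8 in YWT, without overlap, and 8 of the 9 T cell markers lay higher in YKO at an unadjusted p below 0.05 (median 2.03), none being called. The erythroid marker sum was 1659 to 4778 CPM in YKO and 686.6 to 2102 in YWT. All 9 erythroid markers lay higher in YKO (median 1.57), 5 of them at an unadjusted p below 0.05. Of these, Alas2 was called, with a log2 fold change of 2.22 (SE 0.39, edgeR adjusted p = 0.0430), where 0.0267% of all genes were. Of the 10 HSC markers, 8 lay below 0 in YKO against YWT and 2 above, with a median of −0.37, and none was called. The part of these cell type markers in the Hox result was not tested.

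OKO was compared with the libraries labelled YKO. All 10 genes had a log2 fold change above 0, from 0.04 (Hoxa10) to 2.40 (Hoxb8), with a median of 0.54. As 61.8% of all genes lay above 0 and the median of all genes was 0.23, the 10 genes are better read against that median, and 8 of them lay above it. All 6 Hoxb genes did (median 0.68), and 2 of the 4 Hoxa genes (median 0.18). None of the 10 was called, against 1.29% of all genes. Hoxb6 came nearest, with a log2 fold change of 1.30 (SE 0.38, edgeR unadjusted p = 0.00226, adjusted p = 0.0877).

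An unadjusted p below 0.05 was reached by 6 of the 10 genes, all higher in OKO, where 7.89% of all genes reached it in that direction. Besides Hoxb6 these were Hoxb8 (2.40, SE 0.94), Hoxb4 (0.71, SE 0.28), Hoxb3 (0.66, SE 0.28), Hoxa5 (0.62, SE 0.27) and Hoxb2 (0.45, SE 0.21), with edgeR adjusted p from 0.205 to 0.288. Hoxb4 and Hoxb8 did not overlap between the groups, 2 of 10 genes, where OKO lay above YKO without overlap in 1.12% of all genes. Hoxb8 had to differ in part because it passed the filter through the old groups only, and without it 5 of 9 genes reached the unadjusted limit and the median was 0.47. Against the 3 OKO libraries that share the prefix state of YKO, 9 of the 10 genes lay above 0 with a median of 0.71. The median of all genes was 0.49 there, and 7 of the 10 lay above it. Hoxa5 (0.90, SE 0.29, edgeR adjusted p = 0.0479) and Hoxb6 (1.65, SE 0.35, adjusted p = 0.0125) were called, where 16.1% of all genes were. These 3 libraries, OKO1 to OKO3, had TMM factors of 1.83, 1.24 and 1.41, above those of all other libraries. Without YKO1 and YKO2, the median of the 10 genes was 0.30 and that of all genes 0.59, so 2 of the 10 lay above it, and none was called. Hoxa9 and Hoxa10 then had −0.15 and −0.18. With all libraries of OKO and YKO, 9 of 10 B cell markers lay below 0 (median −2.66). So did all 9 erythroid markers (median −2.86) and all 9 T cell markers (median −2.07). Of these lists, 5, 5 and 2 markers were called lower and 1 of 9 granulocyte markers was called higher. Among all genes 1.29% were called. Of the 10 HSC markers, 8 lay above 0 (median 0.50) and none was called. The part of all these markers in the Hox values was not tested. DESeq2 called Hoxb4, Hoxb6 and Hoxb8, where it called 8.50% of the genes it tested.

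The loss of GADD45B in old mice was read from OKO against OWT. All 10 genes had a log2 fold change below 0, with a median of −0.38, where 55.9% of all genes lay above 0 and the median of all genes was 0.12. All 10 also lay below the median of all genes under upper-quartile and size factor scaling, but the sign depended on the scaling, since Hoxa5, Hoxb3 and Hoxb6 lay above 0 with upper-quartile factors. Hoxa10 had the smallest p, with a log2 fold change of −0.42 (SE 0.21, edgeR unadjusted p = 0.0560, adjusted p = 0.592), followed by Hoxa7 (−0.40, SE 0.20) and Hoxa9 (−0.39, SE 0.20). None of the 10 was called, reached an unadjusted p below 0.05 or separated the groups, where 0.0327%, 8.14% and 0.819% of all genes did. DESeq2 called none of them either. Within the libraries of the shared prefix, OKO4 to OKO7 against OWT, all 10 genes lay below 0 with a median of −0.32. Among genes with a mean of at least 5 CPM, the 8 members left had a median of −0.03 and 5 of them lay below the median of all genes. Without OWT1 the median of the 10 genes was −0.11, with 4 of them above 0 and 8 below the median of all genes. Without Hoxb8 all 9 others lay below 0 with a median of −0.36. The 9 granulocyte markers (median −1.74) and the 10 HSC markers (median −0.41) also all lay below 0 in OKO against OWT, and their part in the Hox values was not tested.

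Whether the age difference itself differed by genotype was tested with the interaction term. It was above 0 for 7 of the 10 genes and for 58.0% of all genes, and below 0 for 3, from −0.22 (Hoxa10) to 0.71 (Hoxb6), and the smallest adjusted p was 0.811 by edgeR. None of the 10 reached an unadjusted p below 0.05, where 4.62% of all genes did, and 0% of all genes were called. Without Hoxb8 the term was above 0 for 6 of 9 genes. The 4 comparisons share their groups, so YKO enters both OKO against YKO and YKO against YWT, and a low YKO library moves these 2 in opposite directions.

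**Figure D3:**
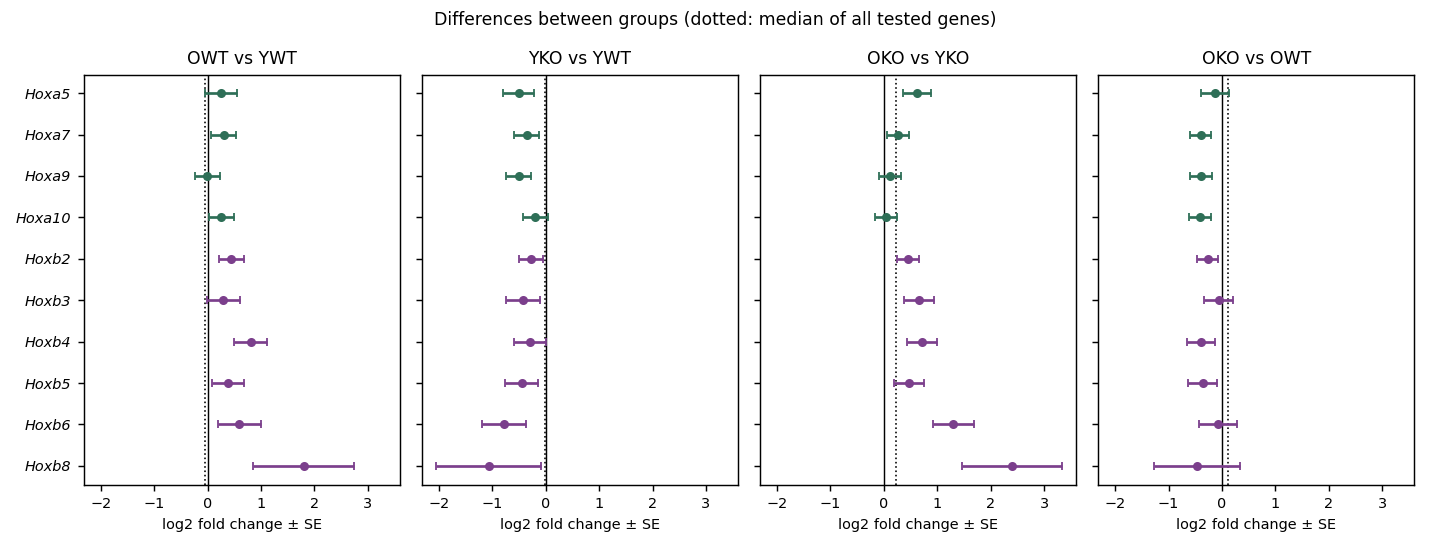
Log2 fold change of each of the 10 genes with its SE in the 4 comparisons, Hoxa genes in green and Hoxb genes in purple, with a solid line at 0 and a dotted line at the median of all 33690 tested genes. The genes lie above that median in OWT against YWT and below it in YKO against YWT and in OKO against OWT.

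The balance between the clusters differed between the young and the old libraries, where in WT age and the title prefix cannot be told apart. The 4 Hoxa genes took 73.5 ± 1.82% of the summed CPM per kb of the 10 genes in YWT (71.5 to 75.8%) and 74.2 ± 1.40% in YKO (72.4 to 75.9%), but 69.6 ± 1.503% in OWT (67.5 to 71.0%) and 68.1 ± 2.54% in OKO (63.0 to 70.8%). Every old library lay below every young library, the highest old one at 71.0% and the lowest young one at 71.5%. Because a share compares genes within a library, it does not move with the scaling between libraries. This share was formed with results of these data known and is given as a description, without a test.

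The share was made up of both sums. In WT, the Hoxa genes summed to 138 ± 9.69 CPM in YWT and 153 ± 29.6 in OWT, and the Hoxb genes to 40.7 ± 2.98 and 56.4 ± 14.6 CPM. The Hoxa sum was 105.5 ± 24.8 CPM in YKO and 118 ± 24.2 in OKO, and the Hoxb sum 31.0 ± 7.37 and 47.0 ± 12.2 CPM. In OKO the share was 63.0 to 68.5% in the libraries without the title prefix and 68.45 to 70.8% in those with it, so OKO libraries of either kind lay below the libraries labelled YKO. Plain counts gave the same order without overlap (75.1 to 79.0% in YWT, 71.3 to 74.5% in OWT, 76.0 to 78.6% in YKO and 66.8 to 73.2% in OKO), as did the longest transcript lengths and the set without Hoxb8. Without Hoxa7, Hoxb2 and Hoxb3, the genes with the most antisense overlap, OWT (72.2 to 76.8%) still lay below YWT (77.5 to 82.7%), but OKO (67.4 to 80.05%) reached into YKO (77.4 to 84.6%).

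**Figure D4:**
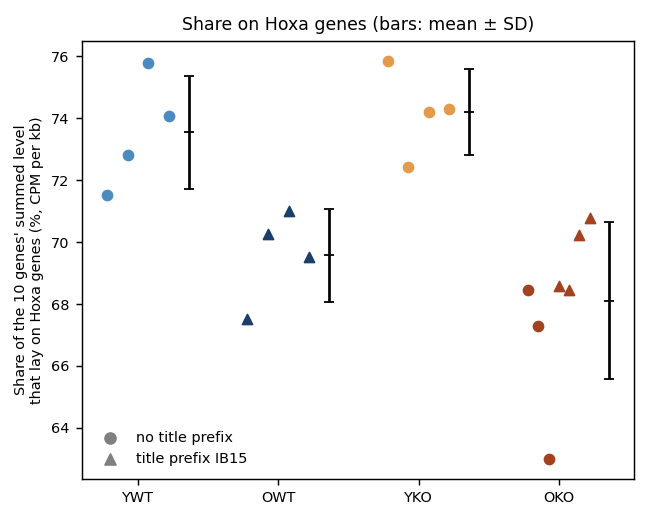
Share of the summed CPM per kb of the 10 genes that lay on the 4 Hoxa genes, in percent, 1 point per library by group, as triangles where the title carries the title prefix and as circles where it does not. Bars give the mean and SD, and the axis does not start at 0. The old libraries lie at or below 71.0% and the young ones at or above 71.5%.

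Between the outermost Hox genes the annotation lists 27 further genes in the Hoxa cluster and 13 in the Hoxb cluster, of which 5 each had a mean of at least 1 CPM. In the Hoxa cluster these were Hoxa2, Hoxa3, Hoxa6 and the antisense RNAs Hoxaas2 and Hoxaas3. In the Hoxb cluster they were Hoxb7, Hoxb9, Gm11539 and the antisense RNAs Hoxb3os and Hoxb5os. All 10 had a log2 fold change below 0 in YKO against YWT (median −0.42), and 9 of 10 lay above 0 in OKO against YKO (median 0.52). Over all genes, 48.1% lay above 0 in YKO against YWT and 61.8% in OKO against YKO.

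Hoxb9, a posterior neighbour of Hoxb8, was the 1 of them that passed the test. It lay at 1.23 to 1.85 CPM in YWT, 2.53 to 7.58 in OWT, 0.319 to 1.87 in YKO and 1.005 to 5.49 in OKO, with a median of 4.52 in OKO. It rose in OKO against YKO by a log2 fold change of 2.19 (SE 0.51, edgeR adjusted p = 0.0322), although 1 YKO library lay inside the OKO range. The call was lost without any of YKO1, YKO2, YKO3, OKO3, OKO4 or OKO5, and without YKO1 and YKO2 the log2 fold change was 1.65 (SE 0.60, adjusted p = 0.298). In OWT against YWT its groups did not overlap, with a log2 fold change of 1.49 (SE 0.52, adjusted p = 0.790). Hoxb7 had 1.72 (SE 0.49, adjusted p = 0.0800) in OKO against YKO. Hoxb3os (20.6 to 32.25 CPM in OWT, 16.2 to 20.1 in YWT) and Hoxb5os (5.32 to 7.09 and 4.46 to 5.12) also lay higher in OWT without overlap, neither being called. OWT lay above YWT without overlap in 2.24% of all genes.

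For the other coding genes of both clusters, 11 in all with 9 tested, the median difference on the log2 scale was 0.32 in OWT against YWT, −0.61 in YKO against YWT, 0.63 in OKO against YKO and −0.20 in OKO against OWT. The list gave 1 call, Hoxb9. Of 18 Hoxc and Hoxd genes, 12 were tested and none was called, and their medians were 0.57, −0.03, 1.09 and 0.61 in the same order. Hoxc6 came nearest with 1.93 in OKO against YKO (edgeR adjusted p = 0.0922) and was low throughout, at 0.0376 to 4.78 CPM.

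The TALE cofactors were represented by 11 genes, all tested, and none passed in OWT against YWT, YKO against YWT or OKO against OWT. Meis3, a less studied relative of Meis1, lay at 6.98 to 14.9 CPM in YWT, 15.6 to 24.95 in OWT, 2.93 to 4.95 in YKO and 4.50 to 14.9 in OKO (median 11.4). It rose in OKO by a log2 fold change of 1.505 (SE 0.30, edgeR adjusted p = 0.0125), where 0.597% of all genes were called higher. The call was lost without YKO1, and without YKO1 and YKO2 together the log2 fold change was 1.82 (adjusted p = 0.174). In YKO against YWT its groups did not overlap, with −1.53 (SE 0.32, adjusted p = 0.1375), and in OWT against YWT they did not overlap either (0.81, SE 0.31, adjusted p = 0.976). YKO lay below YWT without overlap in 3.01% of all genes, and OWT above YWT in 2.24%.

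Meis1, the main partner of HOXA9, lay at 400.1 to 551 CPM in YWT, 394 to 615 in OWT, 237 to 378 in YKO and 271 to 535.5 in OKO. Its YKO libraries lay below all YWT libraries, with a log2 fold change of −0.53 (SE 0.25, edgeR adjusted p = 1.0), which did not pass. Such a separation held for 3.01% of all genes.

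Of 19 regulators that open the Hox clusters, among them Kmt2a, Dot1l, Kat7 and Psip1, 18 were tested and none was called. Kat7, a histone acetyltransferase, had −0.58 (SE 0.21, edgeR adjusted p = 0.173) in OKO against YKO, Dot1l −0.58 and Psip1, the MLL tether LEDGF, −0.59. Aff4 (0.58, SE 0.22), Mllt3 (0.56, SE 0.23), Kat6a (0.49) and Kmt2a (0.23) lay above 0 there, and over the list 7 genes lay above 0 and 11 below. Of 10 genes known as targets of HOXA9 and MEIS1, all tested, none was called. Myb, a factor of progenitor growth, had −0.77 (SE 0.22, adjusted p = 0.0835) in OKO against YKO, and Erg, an HSC factor, had 0.64 (SE 0.21, adjusted p = 0.136). Id2, an inhibitor of E proteins, had 1.01 (SE 0.30, adjusted p = 0.517) in OWT against YWT, and Bcl2, a survival factor, −0.60 (SE 0.23, adjusted p = 0.865) in YKO against YWT. Their median log2 fold change was 0.15 in OWT against YWT, −0.13 in YKO against YWT, 0.22 in OKO against YKO and −0.23 in OKO against OWT.

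The 10 genes varied together from library to library. On the log2(CPM + 1) scale, Pearson's r over 19 libraries had a median of 0.68 among the 45 pairs, from 0.20 (Hoxa10 and Hoxb8) to 0.90 (Hoxb3 and Hoxb6). After the group means were taken out the median was 0.55. Leaving out Hoxb8, the 16 pairs within a cluster had a median of 0.72 and the 20 pairs across the clusters 0.71. The libraries share depth and scaling, so these values are a description.

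The summed level of the 10 genes ran from 106.1 CPM in YKO1, 113.1 in YKO2, 117.7 in OKO7 and 131.0 in OKO2 to 214.1 in OWT2 and 270.2 in OWT1. The HSC marker sum in these libraries was 2697, 2531, 2604, 2796, 5094 and 5197 CPM, so the 4 libraries lowest in Hox level held less of the HSC markers than the 2 highest, although the lowest HSC marker sum of all, 2489 CPM, stood in OKO1 at 143.4 CPM of the 10 genes. OKO7 held 2577 CPM of erythroid markers, the highest of OKO. By group the summed level was 179 ± 10.4 CPM in YWT, 209.8 ± 43.9 in OWT, 136.5 ± 31.99 in YKO and 164.9 ± 35.2 in OKO. The part of the HSC share of the sorted cells in the Hox levels was not tested.

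**Figure D5:**
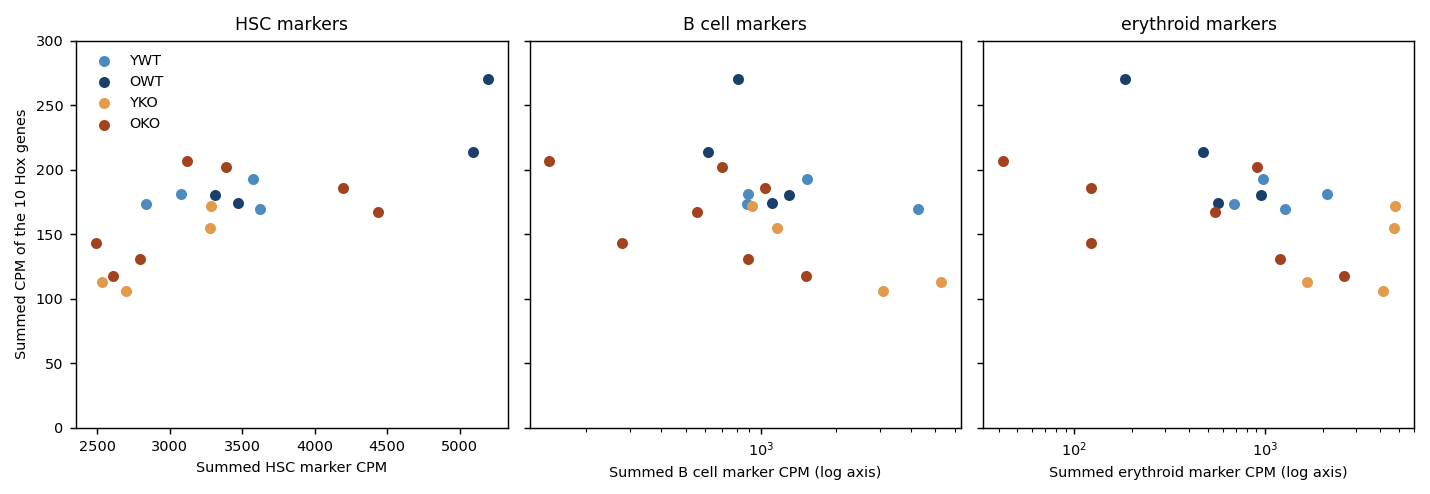
Summed CPM of the 10 genes (vertical axis) against the summed CPM of the HSC, B cell and erythroid markers (the last 2 on log axes), 1 point per library coloured by group. In the HSC panel YKO1 (106.1 CPM of the 10 genes) and YKO2 (113.1) lie at the lower left and OWT1 (270.2) and OWT2 (214.1) at the upper right.

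Among the 11298 genes whose log2(CPM + 1) averaged 3 or more, the 5 whose level over the 19 libraries was most like the mean of the 10 genes were Mecom (Pearson's r = 0.93, Spearman's rho = 0.89), D630039A03Rik (0.92), Col16a1 (0.91), Hacd4 (0.90) and B4galt6 (0.90). Mecom encodes EVI1, a factor of long-term HSCs, and is 1 of the 10 HSC markers. Without YKO1 and OWT1, the libraries farthest from the median, r of Mecom was 0.87. For Hoxa9 alone they were Cnrip1 (0.92), Ski, Gcnt2, Dusp2 and Dgkg (0.90), and Meis1 had 0.89. For Hoxb4 alone they were Dpm1 (0.80), Nabp1, Agtr1a, Cpne8 and Fmnl2 (0.77), and r with Meis1 was 0.44. These values are descriptions over libraries that share depth, sort and scaling.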

How the data were processed

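RNA from sorted HSCs was amplified with the SMART-Seq v4 kit, which does not keep strand, and sequenced. The authors trimmed reads with Trim Galore 0.4.3 and cutadapt, aligned them to mm10 with STAR and counted reads per gene of GENCODE M22 with featureCounts. These counts were deposited per library and are not normalized. Groups came from the sample titles. The bisulfite libraries of the series were not analysed here.

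Genes of all 19 libraries were filtered with filterByExpr (33690 of 55376 rows left), scaled by TMM and fitted in 1 model of the 4 groups with the quasi-likelihood test of edgeR 4.0.16 (limma 3.58.1, R 4.3.3), with Benjamini-Hochberg adjustment over all tested genes. A gene was called at an adjusted p below 0.05 and a fold change over 1.5, or for the interaction at the adjusted p alone. DESeq2 1.42.0 served as an alternative, besides other scalings, filters, covariates and libraries left out. Tables were made with Python 3.11.15, pandas 2.3.3 and scipy 1.17.1. CPM per kb used the union of exons of GENCODE release M21. The fit was tested on simulated data. Likeness used log2(CPM + 1). Replicate numbers are shared between groups, but same-numbered libraries did not deviate together (r from −0.49 to 0.35), so no block was used. All 10 genes are named, besides cluster neighbours of at least 1 CPM on average and called genes of the Hox and cofactor lists. The 5 genes most like the members are named as well. Of the cofactor, activator and target lists, only some genes with the 3 smallest p of a comparison are named. Aff4, Kat6a and Kmt2a are named without being among these. The members and lists were chosen with earlier results of these data known. A result of the cofactor list is not reported here.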

Additional observations from a re-analysis of the deposited data

Results flagged for a closer look

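Of 48 groups of values in which the farthest library was compared with the spread of its group, 3 held a library far from the others by Dixon's 95% limit, where chance gives about 2.4. In Hoxb4, OKO3 held 6.322 CPM and the next OKO library 4.36. In Hoxb8, YWT1 held 0.7837 CPM against 0.09458 in the next YWT library, and OWT1 held 1.811 CPM against 0.5027. Without YWT1, the log2 fold change of Hoxb8 in YKO against YWT was 1.13 in place of −1.07. OWT1 also held the highest summed level of the 10 genes (270.2 CPM) and the highest HSC marker sum (5197 CPM).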

How the results depend on the processing

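In OWT against YWT, YKO against YWT, OKO against OWT and the interaction, 0 of the 10 genes were called under every alternative run. In OKO against YKO, 3 were called by DESeq2 (Hoxb4, Hoxb6, Hoxb8) and 3 among genes with a mean of at least 5 CPM (Hoxb2, Hoxb3, Hoxb6), 2 within 1 title prefix, 1 (Hoxb6) with upper-quartile factors, with the title prefix as a covariate and with the replicate number as a block, and 0 to 1 (Hoxb6, without OKO7) with 1 library left out. None was called without YKO1 and YKO2 or without the 5 libraries OKO1 to OKO3, YWT4 and YKO2. Over all genes the calls went from 434 to 2126 with DESeq2, 1078 with upper-quartile factors, 1502 above 5 CPM, 6420 with the covariate, 5384 within 1 prefix, 1774 with the block, 1822 without OKO7 and 21 without YKO1 and YKO2. Of the genes tested these were 1.29% as reported, 8.50% with DESeq2, 3.20% with upper-quartile factors and 12.1% above 5 CPM. They were 19.1% with the covariate, 16.1% within 1 prefix, 5.27% with the block and 5.47% without OKO7. Without YKO1 and YKO2 the share was 0.0542%. The median of all genes in this comparison moved from 0.23 to 0.43 with upper-quartile factors and 0.03 above 5 CPM. Of the cofactor, activator, target and other Hox lists, YKO against YWT gave 1 call (Meis3) with DESeq2, with the covariate and within 1 prefix, and 0 to 1 with 1 library left out. Of all genes tested, 0.506%, 0.101% and 0.0898% were called there under these settings. OKO against YKO gave 10, 15 and 14 in place of 3, and 0 to 9 with 1 library left out. The settings in that order called 8.50%, 19.1% and 16.1% of all genes tested. As reported, 11 cofactors, 18 activators, 10 targets, 9 other Hoxa and Hoxb genes and 12 Hoxc and Hoxd genes were tested.

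The log2 fold change turned its sign for Hoxa9 in OWT against YWT (0.0134 with the block, −0.0961 to 0.0684 with 1 library left out) and for Hoxa10 there (−0.2917 with the covariate). In YKO against YWT it turned for Hoxa10 (0.0194 without YKO1 and YKO2) and Hoxb8 (0.0598 with the block, −1.4726 to 1.1281 with 1 library left out). In OKO against YKO it turned for Hoxa9 (−0.1457 without YKO1 and YKO2) and Hoxa10 (−0.3019 with the covariate, −0.2253 within 1 prefix, −0.1877 with the block, −0.1784 without YKO1 and YKO2, −0.1094 to 0.2324 with 1 library left out). In OKO against OWT it turned for Hoxa5 (0.1251 with upper-quartile factors, 0.1728 above 5 CPM, −0.303 to 0.0979 with 1 library left out) and Hoxb2 (0.0056 above 5 CPM). Hoxb3 and Hoxb6 turned there with DESeq2 (0.0673 and 0.0661), upper-quartile factors (0.2019 and 0.2107), the size factors of DESeq2 in edgeR (0.0674 and 0.0664), no filter (0.0287 and 0.0291), above 5 CPM (0.2528 and 0.2659), in a fit of both groups alone (0.0726 and 0.0724) and with the block (0.0732 and 0.101), and with 1 library left out ran from −0.2121 to 0.0558 and from −0.3263 to 0.2384. Hoxb8 ran from −0.6676 to 0.3113. The cause was not tested, and none of these values passed the test as reported. The block changed no other call of the 10 genes. Hoxb8, with 0 to 128 counts, is limited by depth.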
